A study of Williopsis jadinii with 2 samples.

Results

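The 169 genes described here are those with a deposited coding length of 300 bases or less, out of 5880 genes in the tables (2.87%). They were chosen by length alone, whatever their expression. RNA came from the wild-type (WT) yeast strain NBRC0988 of Cyberlindnera jadinii, which the labels list as Williopsis jadinii. Cells were pre-cultured for 15 h in glucose medium, washed, and moved for 5 h at 30 °C into fresh YEP medium, which is yeast extract and peptone, with either sugar, glucose or xylose, at 2% (w/v). There was 1 library for glucose and 1 for xylose, both of total RNA, so the groups differ in the sugar of the last 5 h and share strain, genotype and pre-culture.

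Small proteins are a mixed class in yeasts. It includes small ribosomal proteins, small subunits of the respiratory chain and of ATP synthase, chaperones of the mitochondrial intermembrane space, metal chaperones, ubiquitin-like modifiers, RNA-binding Sm and LSm proteins, and small membrane proteins that respond to stress. Short open reading frames are also the hardest to annotate, since a stretch without a stop codon can arise without coding for a protein. Which of these classes a gene belongs to cannot be stated here, because the files identify genes by running IDs that begin with CJ and pair none with a name or product, and 0 of the IDs occur in the RefSeq gene table of 6184 genes of another strain. The genes are therefore described by length, level, response to the sugar and place in the ID order, and only 6 IDs are given.

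The glucose library held 14728899 counts and the xylose library 13061052. Of these, the short genes took 500031 in glucose and 441030 in xylose. Their coding lengths ran from 201 to 300 bases with a median of 261, in 33 distinct values, the most frequent being 267 bases with 10 genes. In codons this is 67 to 100, and whether a stop codon is counted is not given in the sources used here. The data measure RNA, so whether a protein is made was not measured. A count is a share of a library, so fewer transcripts per cell and more RNA from other genes cannot be told apart.

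Most of the short genes were transcribed at ordinary read counts. At least 10 counts were found for 159 of the 169 genes (94.1%) in glucose and for 161 (95.3%) in xylose, against 97.4% and 96.2% of the 5711 longer genes. No count was found for 4 short genes in either library, which have lengths of 234, 255, 288 and 297 bases. The 288-base and the 297-base gene among them have consecutive IDs. With 0 counts seen, a level of up to 3 counts is allowed. This is 0.185 CPM (counts per 1000000 of the scaled library) in glucose and 0.252 CPM in xylose. Under 50 counts over both libraries were found for 15 short genes (8.88%), against 3.89% of the longer genes. Of these 15, 3 were up to 225 bases long and 8 were 226 to 250 bases.

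By median, a short gene had 680 glucose counts and 541 xylose counts. For the longer genes the medians were 916 and 683. The read count of a gene thus hardly followed its coding length: the median glucose count was 736 for the 27 genes of 201 to 225 bases, 680 for the 45 genes of 226 to 250, 692.5 for the 44 genes of 251 to 275 and 622 for the 53 genes of 276 to 300. Genes over 1200 bases, with a median length of 1782, had a median of 983.5 glucose counts. Within the short genes with a count, coding length and glucose count had a Spearman correlation of 0.030 across 165 genes, which share 1 library and are not independent.

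Divided by coding length, the same counts put the short genes high in the ranking. The median level was 173 CPM per kilobase in glucose and 184 in xylose, against 44.1 and 43.6 for the longer genes. The median glucose level per kilobase was 205, 169, 162 and 132 from the shortest to the longest of the 4 length classes, 135 for genes of 301 to 450 bases, 82.7 for 451 to 600 bases, 60.3 for 601 to 1200 bases and 29.7 beyond. The difference in level per kilobase is therefore part of a gradient over all lengths, with no step at 300 bases. Whether reads in untranslated regions or reads reaching only partly into a gene were counted is not given in the sources used here. Either would raise the level per kilobase of a short gene more than that of a long one, and their part in the gradient was not tested.

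**Figure D1:**
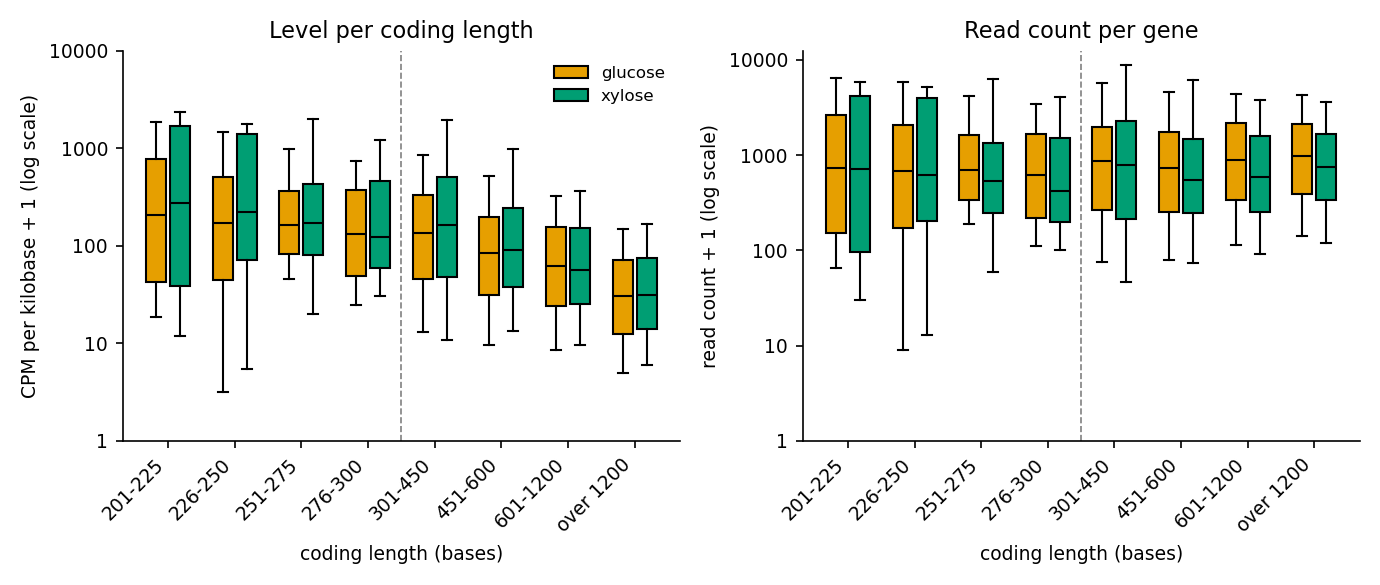
Level per kilobase of coding length (left, CPM per kilobase + 1, log scale) and read count (right, log scale) of all 5880 genes by coding length, for glucose (orange) and xylose (green). Boxes span the quartiles with the median as a line, whiskers run from the 10th to the 90th percentile, and the dashed line marks the limit of 300 bases. The median glucose level is 205 CPM per kilobase in the shortest class and 29.7 in the longest, while the median glucose count stays between 622 and 983.5.

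By level per kilobase, 57 of the 169 short genes (33.7%) were among the top 10% of all genes in glucose and 60 (35.5%) in xylose. By read count these numbers were 23 (13.6%) and 31 (18.3%), so the rank of the class depends on the scale. The short genes hold 0.511% of all coding bases. They took 3.39% of the counts in glucose (95% Clopper-Pearson interval 3.39% to 3.40%) and 3.38% in xylose (3.37% to 3.39%). Of the summed levels per kilobase they held 12.2% and 11.6%. Intervals cover counting error only. Without molecular identifiers, reads of 1 molecule may be counted more than once, and there was 1 library per sugar.

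A few genes carried much of this. CJ0368 is 276 bases long and was read 141769 times in glucose and 68338 times in xylose. It alone made up 28.4% of the short genes' counts in glucose and 15.5% in xylose. Its level was 31743 CPM per kilobase in glucose, rank 1 of all 5880 genes, and 20827 in xylose, rank 2. Xylose was lower by a factor of 1.52 (95% interval 1.51 to 1.54 by counting error), short of the 2-fold threshold. The log2 ratio of CJ0368 was -0.61 with the scaling used here and -0.88 with total counts. The size of its difference thus depended on the scaling, which the interval does not cover. CJ0940, with 252 bases, was read 44068 times in glucose and 37707 times in xylose. Its level was 10807 and 12586 CPM per kilobase, rank 6 in both libraries. Its log2 ratio was 0.22 with the scaling used here and -0.05 with total counts, so its direction depended on the scaling.

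The 10 short genes with most counts held 59.7% of the class's counts in glucose and 49.9% in xylose, and the 50 with most counts held 89.1% in each. The near-equal share of the class in both libraries rested on CJ0368. Without it, the short genes took 2.43% of counts in glucose and 2.85% in xylose, and without the 5 genes with most counts 1.75% and 2.19%. The summed counts of the class, scaled, were 1.20 times as high in xylose as in glucose with CJ0368 and 1.42 times without it. With total-count scaling these values were 0.995 and 1.17. Of the 10 highest short genes per kilobase in each library 8 were the same, and of the 50 highest 42 were the same. This overlap was not computed for longer genes, so it cannot be called particular to the short ones.

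The sugar was compared gene by gene as the log2 ratio of xylose over glucose, taken on CPM + 1 after scaling the libraries by the trimmed mean of M values (TMM). Calls of higher or lower needed a ratio of at least 1 in either direction, which is 2-fold, together with an exact interval of the fold that left out equality. Every gene with a count was used, which is 165 short genes and 5836 genes in all. Of the 165, 22 (13.3%, 95% interval 8.55% to 19.5%) were higher in xylose, where 15.0% of all genes were. Lower in xylose were 7 (4.24%, 1.72% to 8.55%), where 8.91% of all genes were. The other 136 were in neither direction. Genes are not independent, as these intervals assume, and with 1 library per sugar no test of the sugar was possible. The share higher lay near the background and the share lower below it. Longer classes also had low shares of lower genes, with 6.16% of genes of 301 to 450 bases and 4.31% of those of 451 to 600 bases.

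**Figure D2:**
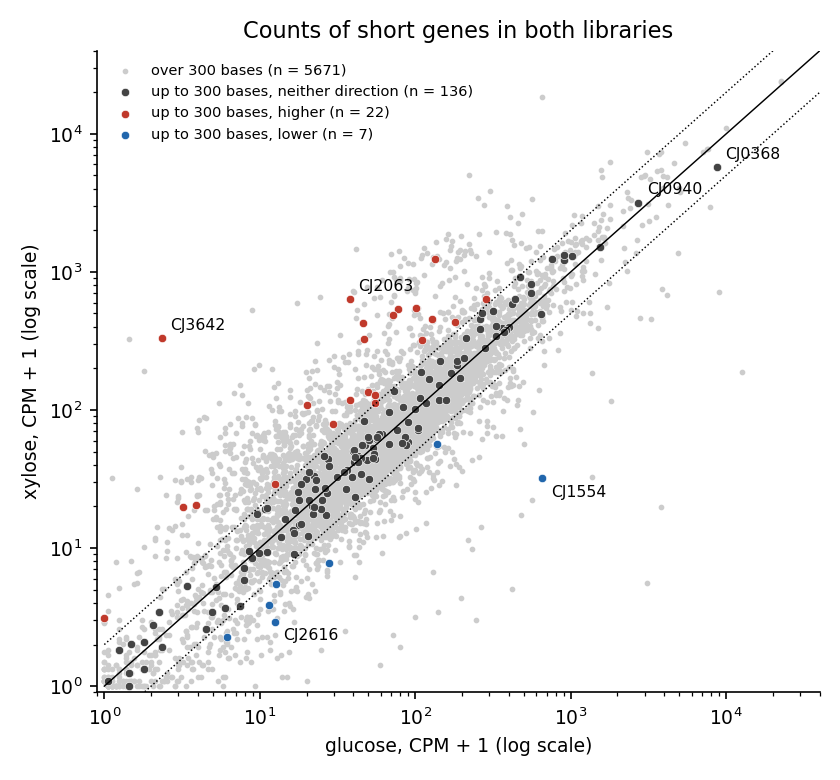
CPM + 1 in the xylose library against the glucose library, both on log scales, for the 165 short genes with a count (coloured by direction) over the 5671 longer genes with a count (grey). The solid line marks equality and the dotted lines 2-fold differences. The short genes follow the diagonal, with 22 points above and 7 below the 2-fold lines, and CJ3642 and CJ1554 lie farthest out.

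Higher genes made up 22 of the 29 short genes past 2-fold (75.9%). Among all genes, 876 were higher and 520 lower, so higher genes also prevailed there. With total-count scaling, 17 of 28 short genes past 2-fold were higher (60.7%), and of all genes 667 were higher and 845 lower. Then 10.3% of the short genes were higher, beside 11.4% of all genes, and 6.67% were lower, beside 14.5%. At 4-fold, 11 short genes were higher (6.67%, with 5.93% of all genes) and 2 were lower (1.21%, with 1.83%). Total-count scaling gave 11 higher (with 4.87% of all genes) and 3 lower (with 2.43%). At 8-fold, 4 were higher (2.42%, with 2.18% of all genes) and 1 was lower (0.606%, with 0.531%). Total-count scaling gave 2 higher (1.21%, with 1.47% of all genes) and 1 lower (0.606%, with 0.617%). At these larger thresholds the shares were close to the background in both directions, on counts of 11 or fewer.

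The median log2 ratio of the 165 short genes was 0.15, with quartiles of -0.25 and 0.63, and that of all genes with a count was -0.02. Total-count scaling moved the median of all genes to -0.27 and that of the short genes to -0.10. Relative to all genes the short genes were 0.16 higher with TMM scaling and 0.17 higher with total counts. Above the median of all genes lay 102 of the 165 short genes (61.8%) with TMM scaling and 103 (62.4%) with total counts. This shift was largest in the classes up to 250 bases and was not confined to the short genes. The median log2 ratio was 0.33 for genes of 201 to 225 bases and 0.28 for 226 to 250 bases, against 0.00 for 251 to 275 bases and 0.06 for 276 to 300 bases. Genes of 301 to 450 bases had a median of 0.08 and those of 451 to 600 bases 0.06, both above that of all genes.

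The median and the share of higher genes did not rank the length classes alike, on few genes per class. In the class of 201 to 225 bases, which had the highest median, 2 of 27 genes (7.41%) were higher by at least 2-fold and 1 was lower. In the class of 226 to 250 bases, 8 of 44 genes with a count (18.2%) were higher and 2 were lower. In the class of 251 to 275 bases 5 of 43 (11.6%) were higher, and in that of 276 to 300 bases 7 of 51 (13.7%). Of all genes, 15.0% were higher. Of the genes of 301 to 450 bases, 20.2% were higher. Across the 165 short genes, coding length and log2 ratio had a Spearman correlation of -0.11, given as a description of genes within 1 pair of libraries.

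Like the longer genes, many short genes differed little between the sugars. The log2 ratio lay within 0.5 of 0 for 91 of them (55.2%), against 49.3% of the longer genes. Log2 CPM + 1 in glucose and xylose had a Pearson correlation of 0.90 across the short genes and 0.86 across the longer genes. The standard deviation of the log2 ratio was 1.12 for the short genes and 1.11 for the longer genes. The quartiles lay closer together for the short genes, at -0.25 and 0.63, than for the longer genes, at -0.48 and 0.56. By length class the standard deviation was 1.58 for 226 to 250 bases, which holds CJ3642 and CJ1554. It was 0.89 for 201 to 225 bases, 0.94 for 251 to 275 and 0.86 for 276 to 300. The exact interval of the fold held equality for 44 short genes (26.7%) and for 16.6% of the longer genes, which is a matter of how many counts a gene had as well as of its ratio.

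**Figure D3:**
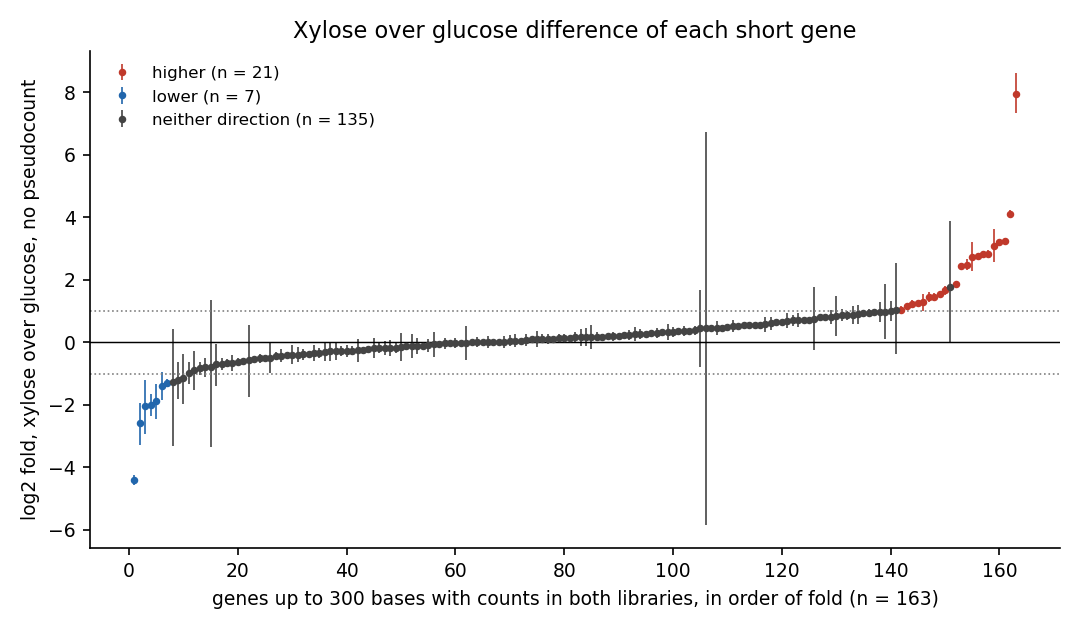
Log2 fold of xylose over glucose without a pseudocount, with 95% exact intervals from counting error as bars, for the 163 short genes with counts in both libraries, in order of fold. Red genes are higher, blue genes lower and dark grey genes in neither direction, and dotted lines mark 2-fold. Most genes lie between the dotted lines with short bars, and the long bars belong to genes with few counts.

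The 22 genes higher in xylose covered a wide range of levels, from 0 to 1045 CPM per kilobase in glucose and from 9.22 to 4310 in xylose. Their median level was 191 CPM per kilobase in glucose, close to the 177 of the genes in neither direction, and 1347 in xylose. They had a median of 767 counts in glucose and 3841 in xylose. Together they took 4.75% of the short genes' counts in glucose and 19.2% in xylose. Their lengths ran from 204 to 297 bases with a median of 265.5.

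CJ3642, with 234 bases, went from 22 counts in the glucose library to 3932 in the xylose library. Its level was 5.81 CPM per kilobase in glucose, rank 156 of the 169 short genes, and 1413 in xylose, rank 33. This is 243-fold higher in xylose (160-fold to 389-fold). CJ2063, with 249 bases, went from 599 to 7523 counts. Its level was 149 CPM per kilobase in glucose and 2541 in xylose. The difference is 17.1-fold (15.7-fold to 18.6-fold), and its rank among the short genes was 93 in glucose and 11 in xylose. The log2 ratio was 7.14 for CJ3642 and 4.06 for CJ2063, and the other 20 had at most 3.21. The wide gap was thus between CJ3642 and all others. These 2 genes were named for having the highest ratios, so their place above the rest follows from that choice.

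The gene with the most xylose counts among the 22 has 288 bases, with 2160 counts in glucose and 14756 in xylose. It was 9.30-fold higher (8.89-fold to 9.73-fold). Close to it in size of difference, a gene of 237 bases went from 729 to 5033 counts, a 9.40-fold difference (8.69-fold to 10.2-fold). The set holds a pair of genes of 204 bases with folds alike within their intervals, 745 and 3894 counts in one (7.11-fold, 6.58-fold to 7.70-fold) and 1146 and 5767 in the other (6.85-fold, 6.43-fold to 7.30-fold). For a gene of 228 bases, glucose gave 0 counts and xylose 25. Its exact interval starts at 8.56-fold higher.

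The 7 genes lower in xylose had a median level of 44.3 CPM per kilobase in glucose and 16.9 in xylose. CJ1554, with 246 bases, was the most abundant of them in glucose, with 10616 glucose counts and 370 xylose counts. Its level was 2667 CPM per kilobase in glucose, rank 9 of the short genes and 40 of all genes, and 127 in xylose, rank 98 and 1452. This is a 21.1-fold lower level in xylose (19.0-fold to 23.4-fold). CJ2616, with 261 bases, went from 187 to 23 counts, which is 44.3 and 7.41 CPM per kilobase. Its level was 5.97-fold lower (3.86-fold to 9.66-fold). Of the other 5 genes, the one with most counts has 279 bases, with 2203 glucose counts and 657 xylose counts, a 2.46-fold lower level (2.26-fold to 2.69-fold). CJ1554 took 2.12% of the short genes' counts in glucose, and all 7 together 2.78%.

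Calls were also counted by level. The 165 genes were put in 3 equal sets of 55 by the mean of both libraries' levels per kilobase. In the set below 89.3 CPM per kilobase, 4 genes were higher and 5 lower, with a median log2 ratio of -0.12. These are 7.27% and 9.09%, where longer genes in the same window of levels had 14.6% and 10.2%. In the middle set 6 were higher (10.9%) and 0 lower, with a median of 0.11, where longer genes had 11.3% and 6.68%. In the set from 343 CPM per kilobase upwards 12 were higher (21.8%) and 2 lower (3.64%), with a median of 0.45. Longer genes in that window had 28.0% higher and 6.50% lower (of 508 genes), with a median of 0.38. The mean level includes the library in which a gene is high, so these sets are not independent of the ratio. The windows are per kilobase, but the pseudocount acts on CPM and the exact interval on counts. At the same level per kilobase a short gene has fewer counts than a longer one. The same fold is then called less readily, most of all in the lowest set, and the size of this effect was not tested.

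The short genes with few counts showed little that could be compared. Besides the gene with 0 and 25 counts, a gene of 234 bases gave 7 glucose counts and 0 xylose counts. A gene of 243 bases had 1 count in each library, which allows folds from 0.017 to 107. By the fold without a pseudocount, 6 genes, the one with 7 and 0 counts included, were at least 2-fold apart but had a log2 ratio under 1 in size with the pseudocount and were counted in neither direction. For 3 of the 6 the exact interval also held equality. The other 3, the gene with 7 and 0 counts among them, were lower in xylose. The number of lower genes thus depends partly on the pseudocount. With 0.1 CPM, 10 short genes were lower (6.06%, with 9.99% of all genes) and 22 were higher. The 4 genes of exactly 300 bases had 127 to 2714 counts in glucose and log2 ratios of -0.06 to 0.90. The 5 genes of 303 bases, just beyond the limit, had 167 to 1383 counts in glucose and log2 ratios of -0.58 to 0.70. None of these 9 genes was called, which are too few to set beside the 15.0% higher and 8.91% lower of all genes.

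In the running order of the IDs the short genes were scattered. Among 10 equal blocks of 588 IDs, each held 11 to 24 of them. In 6 cases 2 short genes had consecutive IDs, and none of these 12 genes was higher or lower by the 2-fold rule. The pair of 288 and 297 bases had 0 counts in both libraries and could not be called. Of all genes with a count, 15.0% were higher and 8.91% lower, so these few genes show no pattern. The files do not say whether the IDs follow the chromosomes.

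Of the 22 short genes higher in xylose, 13 (59.1%, 36.4% to 79.3%) had a gene with the ID just before or after that was also higher. The interval takes the genes as independent, which they are not, and covers neither the scaling nor variation between cultures. Of the 143 short genes with a count that were not higher, 33 (23.1%) had such a neighbour, as did 26.8% of the longer genes that were not higher. Among longer genes that were higher the share was 281 of 854 (32.9%), and among genes of 301 to 450 bases 27 of 69 (39.1%). The share for the short genes was less firm than its value, since total-count scaling gave 6 of 17 (35.3%), beside 24.5% of the longer genes. In 4 of the 13 cases the neighbour had more counts than the short gene, and in 3 of them more than 4 times as many. In 7 of the 13 the short gene had the larger log2 ratio. CJ3642 had no such neighbour, and CJ2063 had one. In the lower direction, 1 of the 7 lower short genes (14.3%) had a neighbour that was also lower, beside 176 of 513 lower longer genes (34.3%). The share among genes that were not lower was not computed, and 7 genes are too few to read as a difference. Whether neighbours share reads was not tested, and the counting tool is not given in the sources used here.

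**Figure D4:**
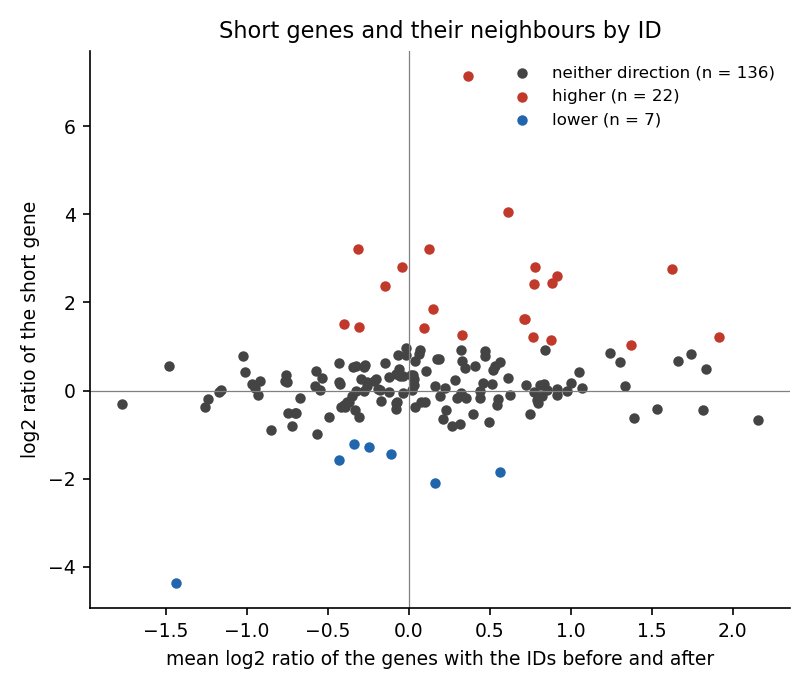
Log2 ratio of xylose over glucose of each of the 165 short genes with a count, against the mean log2 ratio of the genes with the IDs before and after it, coloured by direction. The Pearson correlation is 0.23 across these genes. The gene highest on the plot is CJ3642, whose neighbours have a mean ratio of 0.36, and the lowest is CJ1554.

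Across all 165 short genes, the log2 ratio and the mean ratio of the neighbours by ID correlated with a Pearson coefficient of 0.23 and a Spearman coefficient of 0.23. Across the genes of 301 to 450 bases the values were 0.16 and 0.23, and across all longer genes 0.16 and 0.16. All are descriptions of genes within the same 2 libraries, which share the scaling and, for neighbours that are used more than once, the values themselves.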

How the data were processed

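The authors deposited a table per library, with coding length, read count and FPKM of 5880 genes. The read counts were deposited as whole numbers without normalisation, per the file headers. The FPKM values deposited by the authors equalled the count per kilobase of coding length per 1000000 counts of the column (relative tolerance 1e-06, 0 exceptions) and were not used further. Libraries were strand-specific and paired-end with reads of 150 nt, per the labels' protocols, and HISAT2 2.2.1 is named in the submitters' processing notes. Which counting tool, genome build and annotation were used is not given in the sources used here, so overlapping or near-identical genes may share reads.

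Scaling was by TMM in edgeR 4.0.16 (R 4.3.3) over all genes, with factors of 1.10 for glucose and 0.91 for xylose. Intervals of folds are exact conditional binomial (Clopper-Pearson, 95%), computed with SciPy 1.17.1. Folds carry no pseudocount, and log2 ratios a pseudocount of 1 CPM. No p-value was computed with 1 library per sugar. The calling rule was tested on simulated data with counting error only and with the scaling taken as known. That simulation covers neither variation between cultures nor the scaling itself. Its made differences were all larger than 2-fold and were put only into genes with many counts. How well differences near the threshold or at few counts are called was not tested. Named were the 2 short genes at each end of the log2 ratio among those called, and the 2 most abundant per kilobase among those called in neither direction; other genes were chosen after their values were seen. The gene class and these rules were chosen with earlier results of these data known. Alternatives were total counts, DESeq2 1.42.0 size factors, upper-quartile scaling, TMM without the most abundant genes, minimums of 50 and 500 counts, pseudocounts of 5 and 0.1 CPM and a 4-fold threshold. The comparison of neighbours by ID was added after the data were seen.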

Additional observations from a re-analysis of the deposited data

How the results depend on the processing

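Total-count scaling turned the median log2 ratio of the short genes from 0.15 to -0.10, and raised the lower genes from 7 to 11. The lower genes numbered 3 with at least 500 counts, 4 with a pseudocount of 5 CPM, and 2 with a 4-fold threshold, at which 11 genes were higher. The 22 higher genes numbered 17 to 22 under the other alternatives, and the lower genes 7 to 10 under those not named here. Each scaling changes all ratios by nearly the same amount, and a stricter minimum leaves fewer genes (123 at 500 counts). The median relative to all genes ranged from 0.13 to 0.19. The share of the counts was 3.39% in glucose and 3.38% in xylose. It was 1.75% and 2.19% without the 5 genes with most counts, 2.43% and 2.85% without CJ0368 (chosen after the data were seen), and 12.2% and 11.6% by level per kilobase. The log2 ratio of CJ3642 ranged from 5.72 to 7.82, of CJ2063 from 3.79 to 4.09, of CJ1554 from -4.62 to -4.19 and of CJ2616 from -2.52 to -1.26 over 6 alternatives. No paired analysis was possible because there was a single library of each sugar, and none could be left out. Depth limits the 15 genes under 50 counts, and variation between cultures was not measured.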
